A study of Mus musculus with 2 samples.

Results

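KMT2D, a methyltransferase of histone H3 lysine 4, was mapped by chromatin immunoprecipitation with sequencing (ChIP-seq) in HT22, a hippocampal line of mouse origin that was immortalised in culture. The peaks described here are those at the ends of protein-coding genes. A peak was kept when its summit, the position of highest signal, lay within 500 bp of either end of a protein-coding gene in the RefSeq gene table of GRCm38.p6, the build that mm10 also names. The rule took 628 of the 3706 peaks on chromosomes 1 to 19, X and Y, or 16.9% (95% Wilson interval 15.8 to 18.2), out of 3738 peaks in all. Of these, 477 were nearest to a transcription start and 40 to a transcription finish. For the other 111 the nearest gene had no strand in the tables used, so the kind of end could not be given.

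The peak list set 1 ChIP library, made with an antibody to KMT2D, against 1 library of input chromatin. Both came from wild-type HT22 cells, labelled as a wild-type clone and harvested at 70% confluency, with no treatment named. Cells with a deletion of the SET domain are also described for the series and are not analysed here. Neither library was replicated, so no p-value is given. Intervals on shares are Wilson intervals, those on medians come from order statistics over peaks, and those on a single fold are exact Poisson intervals with the background held fixed. All are at 95% and cover counting error or sampling of peaks only. The fold is the authors' own value, the ChIP pileup over the local background at the summit. The pileup, in fragments, could be solved for all 628 peaks from the deposited fold and p-value. It had a median of 30 fragments and a range of 13 to 175, which is the depth behind each fold.

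KMT2D, also called MLL4, is best known for placing monomethylation on lysine 4 of histone H3 at enhancers, as part of a complex it shares in large part with its paralogue KMT2C. Trimethylation of the same residue at promoters is mostly the work of the SETD1 and KMT2A or KMT2B complexes. Many mammalian promoters lie in CpG islands, stretches rich in the dinucleotide CG where the chromatin is open and transcription often starts in both directions.

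Promoter sequences came from RefSeq on GRCm38.p6 and run from 250 bases before to 50 after an annotated start, 5′ to 3′ on the gene's strand. The first set shows the DNA under 4 start peaks of high fold with no tRNA gene at the summit, with the 21 bases around the summit in capitals. KMT2A, whose promoter held the peak of highest fold in the whole list, is the H3K4 methyltransferase MLL1. SMAD6 is an inhibitor of bone morphogenetic protein signalling.
Kmt2a, chr9:44881240-44881539, minus strand: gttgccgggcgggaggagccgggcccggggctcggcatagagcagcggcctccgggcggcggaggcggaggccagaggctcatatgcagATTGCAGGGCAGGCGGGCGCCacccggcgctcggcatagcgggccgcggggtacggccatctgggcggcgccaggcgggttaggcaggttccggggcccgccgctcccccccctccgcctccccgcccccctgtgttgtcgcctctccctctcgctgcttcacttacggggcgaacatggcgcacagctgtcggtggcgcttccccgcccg
Ankrd40, chr11:94327751-94328050, plus strand: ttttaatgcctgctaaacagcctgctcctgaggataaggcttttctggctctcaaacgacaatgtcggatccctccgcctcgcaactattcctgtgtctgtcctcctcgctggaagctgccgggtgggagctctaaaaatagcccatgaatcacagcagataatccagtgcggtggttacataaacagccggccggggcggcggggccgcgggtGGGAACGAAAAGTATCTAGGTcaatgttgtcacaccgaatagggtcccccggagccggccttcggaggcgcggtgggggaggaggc
Rnf44, chr13:54693911-54694210, minus strand: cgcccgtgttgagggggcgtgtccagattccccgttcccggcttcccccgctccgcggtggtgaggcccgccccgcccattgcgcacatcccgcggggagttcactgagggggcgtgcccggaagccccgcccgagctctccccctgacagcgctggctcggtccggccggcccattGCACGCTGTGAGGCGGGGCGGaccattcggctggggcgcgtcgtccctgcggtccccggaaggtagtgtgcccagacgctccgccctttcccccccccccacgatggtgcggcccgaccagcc
Smad6, chr9:64022010-64022309, minus strand: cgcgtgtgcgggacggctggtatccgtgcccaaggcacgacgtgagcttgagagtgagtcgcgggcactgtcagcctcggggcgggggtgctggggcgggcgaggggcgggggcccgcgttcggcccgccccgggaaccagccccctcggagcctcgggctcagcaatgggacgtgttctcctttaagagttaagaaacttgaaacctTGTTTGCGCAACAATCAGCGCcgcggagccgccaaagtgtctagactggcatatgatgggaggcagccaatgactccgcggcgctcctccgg

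The CpG ratio, the observed number of CG dinucleotides over the number that the base composition would give, was 0.839 in the Kmt2a window, 0.796 at Ankrd40, 0.845 at Rnf44 and 0.952 at Smad6. GC content was 75.7%, 58.0%, 74.7% and 66.3% in the same order. The summits lay 151, 26, 63 and 32 bases before the annotated promoter start. The promoter entries and the gene table can place the start of a gene at different bases. All positions given further on are counted from the gene table, which puts the Rnf44 summit inside the gene.

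The second set shows 2 promoters whose peak sat on a tRNA gene next to the start, with the tRNA gene, or the part of it inside the window, in capitals. Polr3e encodes a subunit of RNA polymerase III, the enzyme that transcribes tRNA genes, and Ndufs7 a subunit of respiratory complex I.
Polr3e, chr7:120917528-120917827, plus strand: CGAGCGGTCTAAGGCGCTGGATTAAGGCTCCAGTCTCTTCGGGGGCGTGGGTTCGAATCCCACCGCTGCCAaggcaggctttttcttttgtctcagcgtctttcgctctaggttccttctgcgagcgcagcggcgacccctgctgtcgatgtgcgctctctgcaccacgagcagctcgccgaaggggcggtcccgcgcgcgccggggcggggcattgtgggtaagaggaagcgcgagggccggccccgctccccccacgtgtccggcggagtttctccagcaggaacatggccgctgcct
Ndufs7, chr10:80249199-80249498, plus strand: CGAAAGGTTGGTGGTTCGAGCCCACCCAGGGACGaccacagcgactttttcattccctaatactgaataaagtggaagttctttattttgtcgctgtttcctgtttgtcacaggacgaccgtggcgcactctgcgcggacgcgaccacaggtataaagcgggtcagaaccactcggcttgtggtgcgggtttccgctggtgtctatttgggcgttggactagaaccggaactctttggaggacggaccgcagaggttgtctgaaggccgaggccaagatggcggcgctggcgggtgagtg

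In the Polr3e window the 71 capitals are the part of n-TLaag4 that the window holds, and the motif GTTCGANNC, the B box that lies inside tRNA genes, began 8 bases from the summit. In the Ndufs7 window the 34 capitals are the end of n-TNgtt7, and the same motif began 2 bases from the summit.

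The third set shows 3 promoters described further on. For Ndufb3, another complex I subunit, the capitals are the stretch between its start and that of Fam126b, which is read in the other direction. For Fos, a subunit of the transcription factor AP-1, and Dusp1, a phosphatase that turns off MAP kinases, the capitals mark TGACG, TGACGTCA (the cAMP response element, CRE) and TATAAA as printed.
Ndufb3, chr1:58586147-58586446, plus strand: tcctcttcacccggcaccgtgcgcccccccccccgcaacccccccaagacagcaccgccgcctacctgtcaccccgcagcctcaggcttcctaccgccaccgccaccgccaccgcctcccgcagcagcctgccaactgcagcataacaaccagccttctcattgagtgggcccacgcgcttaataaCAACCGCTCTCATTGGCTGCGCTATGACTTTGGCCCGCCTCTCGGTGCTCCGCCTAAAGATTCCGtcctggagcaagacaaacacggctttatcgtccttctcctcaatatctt
Fos, chr12:85473640-85473939, plus strand: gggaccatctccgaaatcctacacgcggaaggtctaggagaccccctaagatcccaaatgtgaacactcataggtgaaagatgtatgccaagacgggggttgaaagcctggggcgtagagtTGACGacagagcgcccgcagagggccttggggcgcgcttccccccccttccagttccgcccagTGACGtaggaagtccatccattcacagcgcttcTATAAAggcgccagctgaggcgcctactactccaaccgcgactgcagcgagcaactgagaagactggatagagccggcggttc
Dusp1, chr17:26508423-26508722, minus strand: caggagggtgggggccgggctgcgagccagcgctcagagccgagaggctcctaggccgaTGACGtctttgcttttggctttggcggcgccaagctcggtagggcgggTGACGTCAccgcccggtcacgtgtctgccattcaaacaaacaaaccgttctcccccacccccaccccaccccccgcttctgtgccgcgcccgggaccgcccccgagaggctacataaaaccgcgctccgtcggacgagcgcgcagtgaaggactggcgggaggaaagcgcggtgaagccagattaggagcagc

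TGACG stood 18 and 81 bases from the summit at Fos, with TATAAA at 114. At Dusp1 TGACG stood 38 bases from the summit and TGACGTCA 86. These matches are descriptions of the letters only. Tests of factor binding were not made.

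Peaks at gene ends lay mainly at starts. Of the 517 peaks that could be split, 477 were at a start (92.3%, 89.6 to 94.3). Counted over genes, 524 of the 17492 protein-coding genes with a strand had a summit at the start (3%, 2.75 to 3.26), and 52 of the same genes had one at the finish (0.297%, 0.227 to 0.390), a ratio of 10.1. Only 7 genes had both, and of these only Hes7, Eml3 and Klf6 had 2 or more peaks at their ends. In the rest a single summit lay within 500 bp of both ends. Either end of any protein-coding gene was reached for 689 of 21774 genes (3.16%), and for 3.27% of the 21000 with a curated mRNA, so most genes had no peak at their ends in this library. A single summit can serve several genes, and 77 of the 628 peaks (12.3%) had at least 2 gene ends in the window.

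Summits at starts were most frequent near the start and spread widely around it. Positions are counted from the start of the gene, positive into the gene and negative before it. The median was 45 bp inside (21 to 73), with quartiles at -115 and 197 bp, and 274 of 477 summits (57.4%) lay inside the gene. Within 50 bp of the start were 78 summits, within 100 bp 163 and within 200 bp 295. The peak interval itself covered the start in 221 of 477 cases (46.3%). The median moved outside the gene among stronger peaks, to -49 bp (-84 to -2) when the −log10 q was the list's median or more, and to -68 bp (-145 to 53, an interval that spans the start) when the fold was 5.77 or more, the 75th percentile of the list. Of the 42 start peaks left by the latter, 14 had a tRNA gene within 500 bp, whose part in the shift was not tested.

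**Figure D1:**
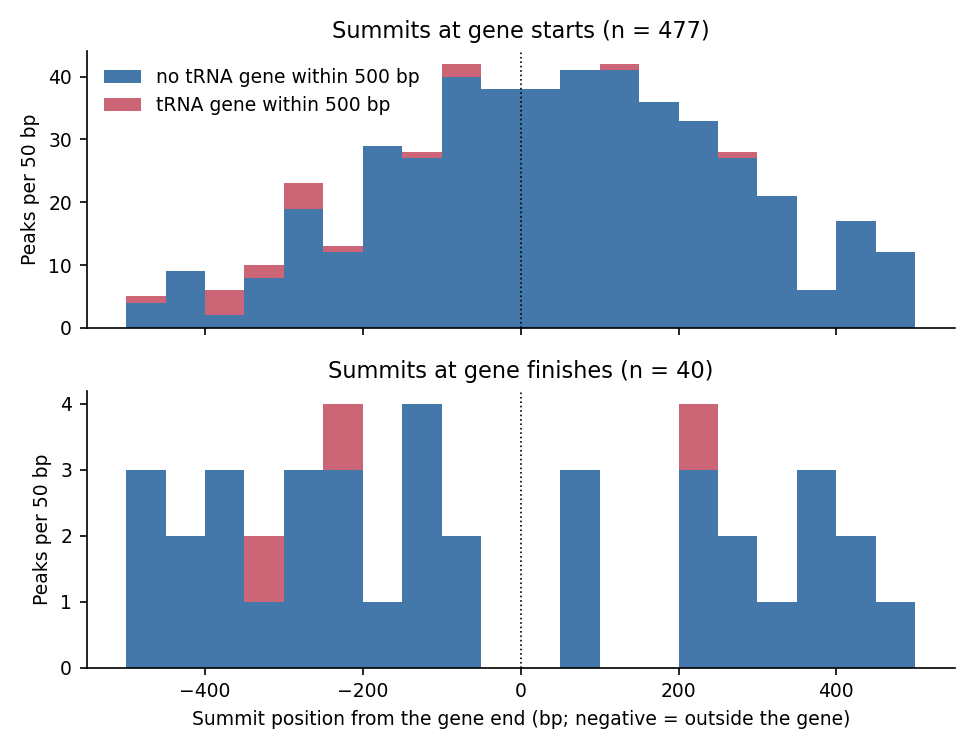
Position of the summit from the nearest gene end in bp, positive inside the gene, for the 477 start peaks and the 40 finish peaks in bins of 50 bp, with peaks that have a tRNA gene within 500 bp in red. Start peaks are most frequent around the start, with 295 of 477 within 200 bp, while none of the 40 finish peaks lay within 50 bp of the finish.

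Peaks at finishes did not gather at the end of the transcript. Their unsigned distance from the finish had a median of 264.5 bp (216 to 361), against 158 bp (143 to 175) from the start for start peaks. No finish summit of 40 lay within 50 bp, 5 lay within 100 bp and 10 within 200 bp, and the interval covered the finish in 6 cases (15.0%). Inside the gene were 16 of the 40 summits. An annotated promoter start of some gene was within 500 bp in 6 of the 40. At Cebpb, a C/EBP transcription factor, the gene next to the finish peak was A530013C23Rik, a long non-coding RNA gene 115 bp from the summit. H4c8 and H3c14, short histone genes, had their own starts within the window. The genes of finish peaks had a median length of 10837 bp (5149 to 16905), against 22899 bp (20780 to 26595) for genes of start peaks and 16907 bp over all 17492 genes with a strand.

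Start peaks had lower folds than the peaks that the rule did not take, without a test over samples. Their median fold was 3.47 (3.33 to 3.55; quartiles 2.90 and 4.12), that of finish peaks 4.40 (3.83 to 5.21) and that of the 3078 other peaks 4.69 (4.62 to 4.73). The ChIP pileup was alike, with medians of 30, 31 and 31 fragments. The background was not, with medians of 7.78 (7.35 to 8.22) at starts, 6.58 (5.62 to 7.35) at finishes and 5.62 (5.62 to 5.79) at other peaks. Folds of 5.77 or more, which 25% of the 3706 peaks had, were held by 42 of 477 start peaks (8.81%), 10 of 40 finish peaks (14.2 to 40.2%) and 865 of 3078 other peaks (28.1%). The part of the background in the lower fold at starts was not tested.

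**Figure D2:**
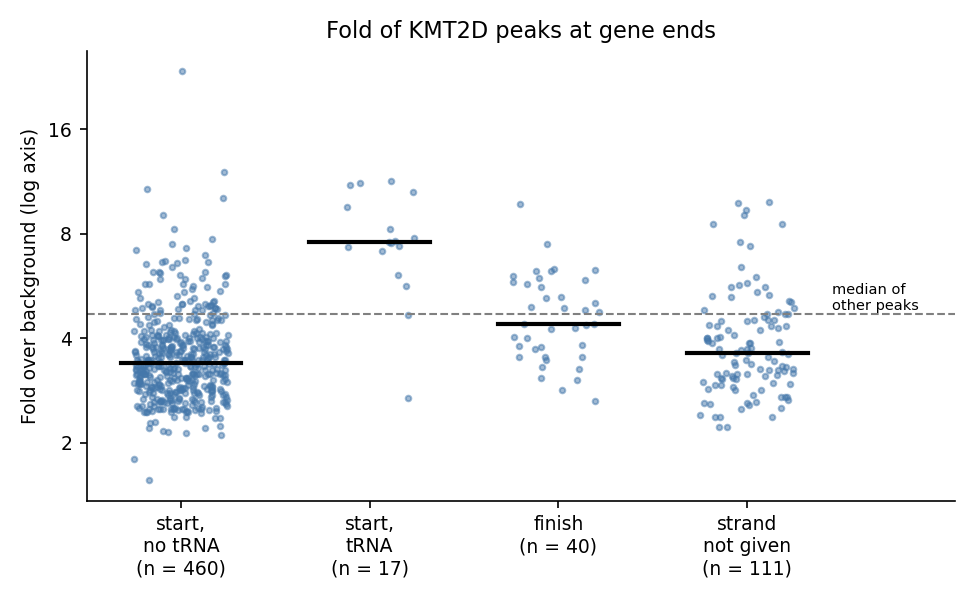
Fold of ChIP over background on a log axis, 1 point per peak, for start peaks without and with a tRNA gene within 500 bp, finish peaks and peaks with no strand given. Thick lines are medians and the dashed line is the median of the 3078 other peaks, 4.69, and the 460 start peaks without a tRNA gene have a median of 3.40.

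Kmt2a stood apart. Its peak, at chr9:44881270-44881793 with the summit 88 bp before the start, had 175 fragments over a background of 6.49 and a fold of 23.5 (20.2 to 27.2). The next start peak, at Gm12447, reached 12.02. Ankrd40, with ankyrin repeats, reached 10.7 (8.42 to 13.5) at 26 bp before its start, and Rnf44, a RING finger protein, 10.1 at 53 bp inside. Snx12, a sorting nexin on the X chromosome, reached 9.09 (6.44 to 12.5). Nr1d2, the clock repressor REV-ERB beta, reached 8.25 (6.17 to 10.8) with its summit 479 bp inside the gene. Proser1 reached 7.71 at 79 bp before its start and Tinagl1, an extracellular matrix protein, 7.46 at 123 bp before. These 8 genes were the ones of the 20 highest start peaks whose summit was not in a tRNA gene. The summits at Kmt2a, Gm12447 and Tinagl1 also lay inside the long non-coding RNA genes Gm39326, Gm12446 and Gm52490, whose part in the peaks was not tested.

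**Figure D3:**
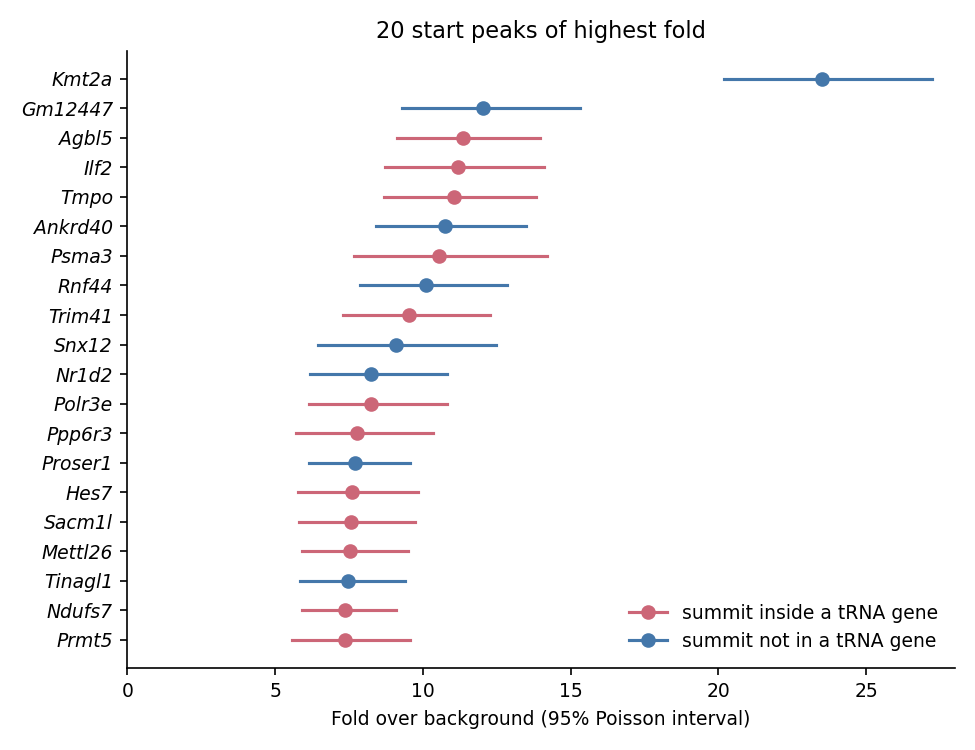
Fold of the 20 start peaks of highest fold, with exact 95% Poisson intervals, by gene, marked by whether the summit lay inside a tRNA gene. Kmt2a lies far above the rest at 23.5, and 12 of the 20 summits lay inside a tRNA gene.

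The other 12 of the 20 highest start peaks had their summit inside a tRNA gene. They were Agbl5 with a fold of 11.3, Ilf2 with 11.2, Tmpo with 11.04, Psma3 with 10.6, Trim41 with 9.53, Polr3e with 8.24, Ppp6r3 with 7.78, Hes7 with 7.61, Sacm1l with 7.58, Mettl26 with 7.53, Ndufs7 with 7.37 and Prmt5 with 7.35. They include Ilf2, a binding protein of double-stranded RNA, Psma3, a proteasome subunit, and Prmt5, an arginine methyltransferase. Across all 628 peaks, 23 had a tRNA gene within 500 bp (3.66%, 2.45 to 5.44). Of the 3078 other peaks 83 had one (2.70%, 2.18 to 3.33), and the intervals overlap. In 22 of the 23 the summit was inside the tRNA gene. The median fold of the 23 was 7.58 (7.12 to 9.53), against 3.47 (3.38 to 3.58) for the 605 without a tRNA gene. A fold of at least 5.77 was held by 19 of the 23. Start peaks with a tRNA gene lay outside the protein-coding gene in 15 of 17 cases, at a median of -289 bp. Without them, 28 of 460 start peaks (6.09%) were at or above 5.77, and the median fold was 3.40 (3.30 to 3.52). Other small RNA genes at summits were Rn7s1 at Rps29 with a fold of 9.37, Gm24019, a snRNA gene, at Med16 with 6.22, Rpph1, the RNA of ribonuclease P, at Parp2 with 4.09, Rnu12, the U12 snRNA, at Poldip3 with 4.04, and Rmrp at Ccdc107 with 3.34. A small RNA gene was nearer to the summit than the gene end in 30 of 628 peaks (4.78%). A long non-coding RNA gene was as near or nearer in 70 (11.1%). Both counts took the distance to the nearest part of the RNA gene, so a summit anywhere inside such a gene counted as nearer. The protein-coding gene was measured to its end only, so these are not shares of nearest genes.

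Start peaks without a tRNA gene fell into 188 with the summit before the start and 272 with it inside the gene. Those before the start had a median fold of 3.72 (3.47 to 3.90) and those inside 3.28 (3.17 to 3.40). The background was 7.55 fragments before the start and 8.22 inside, and the pileup 31 and 28.

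The finish peaks of highest fold were at genes of different functions. Vipr1, a receptor for vasoactive intestinal peptide, had the highest fold of 9.77 (7.32 to 12.8) with its summit 418 bp inside the gene. Hes7, a transcription factor of the segmentation clock, followed with 7.45 (5.69 to 9.60) at 236 bp past the finish, where the summit lay in the tRNA gene n-TLtag3. Sap30bp reached 6.35, Sh3d21 6.30, and Wnt2b, a WNT ligand, and Fadd, an adaptor of death receptors, 6.26 each. Mrpl58, a mitochondrial ribosomal protein, reached 6.05 with its summit in n-TRcct5, and Phka2, a subunit of phosphorylase kinase, 5.98. 1810062G17Rik reached 5.89. Summits of these 9 lay 148 to 438 bp from the finish.

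Among the peaks without a strand, chosen here after their values were seen, Usp9x, a deubiquitinase, had a fold of 8.53, Cdkl3 8.51, Samd1 7.59, Kat6a, a histone acetyltransferase, 7.40, Clcf1, with its summit also in a long non-coding RNA gene, 6.42 and Ccn2, a matricellular protein, 5.99. The 111 such peaks had a median fold of 3.62 (3.32 to 3.95) and a median position 57 bp inside the gene.

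Head-to-head promoters, where 2 genes on opposite strands start within 1000 bp of each other, held 36 of 477 start peaks (7.55%, 5.501 to 10.3). Such pairs number 581 and hold 1154 of 17492 genes (6.60%). The 2 shares count different units, since a peak at such a pair can serve both genes. Whether head-to-head promoters held more peaks than others cannot be read from these shares and was not tested. The median fold was 3.37 for head-to-head peaks and 3.47 for the other start peaks. Both starts were in the window in 30 of 36 cases, and the summit lay between them in 9. The 5 of highest fold were Proser1 with Nhlrc3 at 7.71, Ndufb3 with Fam126b at 6.43, Myl12a with Myom1 at 5.95, Cpsf2 with Ndufb1 at 4.98 and Mrpl30 with Mitd1 at 4.83. At Ndufb3 the starts were 64 bp apart and the summit lay 75 bp inside the gene, outside the stretch in capitals above.

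Promoters with a summit were rich in CpG. Of 21263 RefSeq promoter entries, 558 (2.62%) had 1 or more of the 628 summits described here within 500 bp of their start. Their median CpG ratio was 0.858 (0.841 to 0.875), against 0.550 (0.542 to 0.560) for the 20705 without, and their GC content 65.0% against 56.0%. A ratio above 0.6 was held by 496 of 558 (88.9%) and by 9633 of 20705 (46.5%). The share of promoters with a summit was higher at each step of CpG ratio, from 0.106% (5 of 4700) at 0 to 0.2 and 0.517% at 0.2 to 0.4 to 1.38%, 3.37% and, above 0.8, 5.96% (356 of 5973, 5.39 to 6.59). The fold showed no such order among the 448 start peaks with a promoter entry of their gene within 500 bp of the summit. Its median was 3.99 (3.27 to 5.11) in 20 peaks with a ratio up to 0.4, 2.97 in 28 at 0.4 to 0.6, 3.58 in 111 at 0.6 to 0.8 and 3.42 in 289 above 0.8. Start peaks at promoters with a ratio up to 0.4 included Ankrd1 with a fold of 6.59, Fblim1 with 5.74, Nupr1 with 5.66, Noct with 5.11, Apol9b with 4.97, Plin4 with 4.07 and Apol9a with 3.99, as well as Gm12447 and Tinagl1 above. ANKRD1 is a YAP target and NUPR1 a stress-induced nuclear protein. They were chosen after their values were seen.

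**Figure D4:**
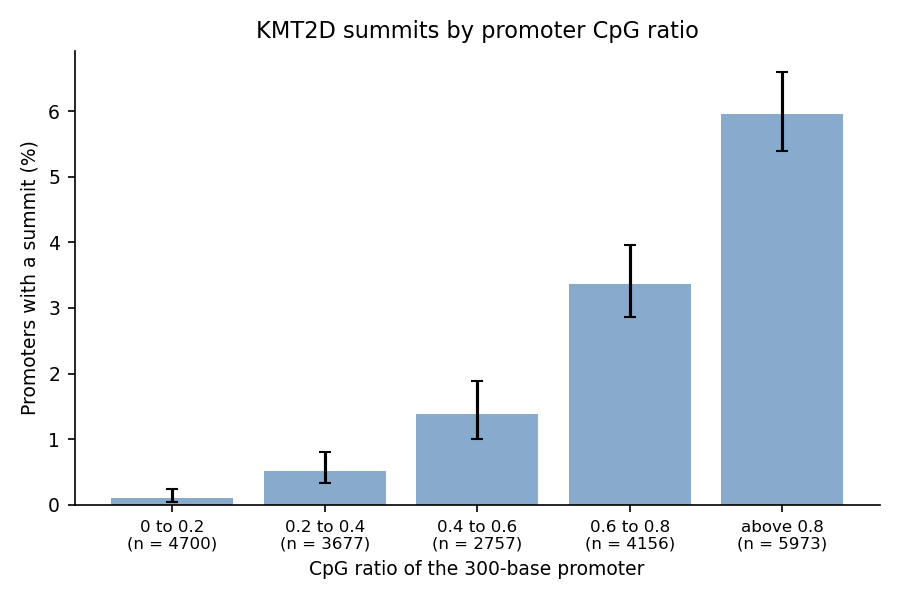
Share of RefSeq promoters with 1 or more of the 628 KMT2D summits within 500 bp of their start, in percent, by CpG ratio of the promoter, with 95% Wilson intervals. It goes from 0.106% at the lowest ratio to 5.96% above 0.8.

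Motifs were searched as exact letters on both strands of the 300-base promoters. As above, only summits of the 628 peaks were counted, and each promoter entry was treated as separate. TGACG was in 39.1% of promoters with a summit and 23.2% without (23.6% of all), and TGACGTCA, which contains it, in 4.48% and 2.17% (2.23% of all). CCGGAAG, the ETS motif, was in 23.1% and 11.3% (11.6% of all), CACGTG, the E-box, in 14.3% and 7.66% (7.84% of all), and GGGCGG, the GC box, in 71.0% and 45.5% (46.2% of all). TATAAA was in 6.99% and 12.8% (12.6% of all). Among promoters with a CpG ratio above 0.6 the GC box was in 74.6% with a summit and 74.1% without, with overlapping intervals. There TGACGTCA was in 4.64% (3.11 to 6.86) and 3.67% (3.32 to 4.07), also overlapping, and TGACG was in 42.3% (38.1 to 46.7) with a summit and 35.1% (34.2 to 36.1) without, CCGGAAG in 25.2% (21.6 to 29.2) and 19.5% (18.7 to 20.3), CACGTG in 14.9% (12.1 to 18.3) and 11.2% (10.6 to 11.9), and TATAAA in 6.85% and 5.52%. CCAAT, the NFY motif, was in 31.7% (27.7 to 35.9) with a summit and 36.8% (35.8 to 37.8) without, and the intervals touch. ACTACAA, in the motif of ZNF143, was lower with a summit, in 2.02% (1.10 to 3.67) against 4.05% (3.67 to 4.46). Intervals for the AP-1 letters TGACTCA and TGAGTCA overlapped in that set, with 3.43% (2.15 to 5.42) and 2.42% (2.13 to 2.75). The set was not matched for CpG. A ratio above 0.8 was held by 356 of its 496 promoters with a summit, and by 5973 of all its 10129 promoters. The part of CpG in the remaining motif differences was not tested. The other letters searched were in these shares of promoters with and without a summit. GCATGCGC (NRF1) was in 6.81% and 3.43%, TCTCGCG in 5.20% and 3.43%, AAGATGG (YY1) in 6.27% and 6.24%, GGAATG (TEAD) in 11.3% and 13.6%, the SRF motif in 1.08% and 1.54%, and GTTCGANNC in 1.61% and 0.908%. Their shares of all promoters were 3.52%, 3.48%, 6.24%, 13.6%, 1.52% and 0.926%. Over promoters of every CpG ratio, CCAAT was in 32.6% with a summit and 38.3% without (38.2% of all). ACTACAA was in 1.79% and 3.65% (3.60% of all), and the AP-1 letters in 5.20% and 4.64% (4.66% of all). Above a CpG ratio of 0.6, GCATGCGC was in 7.46% (5.46 to 10.1) with a summit and 6.33% (5.86 to 6.84) without, and TCTCGCG in 5.44% (3.77 to 7.80) and 6.86% (6.37 to 7.38), the opposite order. Among peaks with a fold of 5.77 or more, over promoters of every CpG ratio, CCAAT was in 44.2% with a summit and 38.2% without, and CACGTG in 6.98% and 7.84%, both turned against the values of all peaks. Only 62 of the 628 peaks had such a fold, so these shares rest on few promoters, and the turns were not tested.

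Gene lists were counted by how many of their measured members had a summit at either end, beside the 3.16% of all protein-coding genes. The lists overlap, and a summit between neighbouring genes counts for each. Of 34 lists, 28 were above 3.16% and 16 above 3 times that share. No list was tested.

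Immediate early and AP-1 genes, which are switched on within minutes of a stimulus, had the highest share of the 34 lists, 12 of 40 (30.0%), with Ccn2 at a fold of 5.99, Sertad1 at 5.27, Dusp4 at 4.69 and Klf6 at 4.39. Fos, at 3.83, and Dusp1, at 3.67, were in the same list. Of the 40 genes, 3 were counted when the −log10 q had to be the peak list's median or more, and 1 when the fold had to be 5.77 or more. The same thresholds left 185 and 62 of all 628 peaks. Klf6 had a summit at both ends, with a fold of 4.17 at the start. YAP and TEAD targets had 6 of 26 (23.1%), led by Ankrd1 at 6.59 and Wwc2 at 6.20, with Ccn2 again and Ptpn14 at 3.41. Kruppel-like and SP factors, zinc finger factors that bind GC-rich DNA, also had 6 of 26, with Klf11 at 5.14, Klf6, Klf3 at 3.65 and Sp3 at 2.75. TGF-beta and BMP signalling had 5 of 32, with Smad6 at 6.62, Skil at 4.24, Tgif1 at 3.88 and Smad5 at 3.55. SRF and actin targets had 5 of 33, with the myosin light chains Myl12a at 5.95 and Myl12b at 4.54, Zyx at 3.79 and Actn1 at 3.40. MAP kinase feedback genes had 3 of 25, Dusp4, Dusp1 and Spred1 at 3.23. The circadian clock had 4 of 24, with Nr1d2 at 8.25, Per2 at 4.35, Per1 at 3.78 and Dbp at 2.85, whose summit was nearer to the finish of Car11. With a window of 250 bp, 1 of the 24 clock genes and 1 of the 25 MAP kinase feedback genes were counted.

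The H3K4 methyltransferase complexes had the next highest share, 5 of 20 (25%), with Kmt2a at 23.5, Psip1, a chromatin reader that partners KMT2A, at 5.12, Setd1a at 2.92, Paxip1, a subunit of the KMT2C and KMT2D complexes, at 2.88 and Kmt2c at 2.47. Acetyltransferases and deacetylases had 6 of 31, with Kat6a at 7.40, Hdac5 at 3.91, Hdac2 at 3.63 and Sirt1 at 3.08. Replication-dependent histones had 7 of 64, with H3c1 and H4c1 sharing a summit of 5.75, H4c8 at 4.03 and H3c14 at 3.53. Chromatin remodellers had 3 of 33, with Arid1a at 3.54, Bcl7a at 2.96 and Brd7 at 2.85, and Polycomb genes 2 of 32, Bmi1 at 3.81 and Rbbp7 at 2.16, the latter over a high background. Mediator had 2 of 30, Med16 at 6.22 in a snRNA gene and Med28 at 3.83. Summits at Ccn2, Kat6a, Sp3, Tgif1, Bcl7a, Atp5l, Nupr1 and Agbl5, like that at Kmt2a, lay inside a long non-coding RNA gene, whose part was not tested. The lowest shares among lists with a summit were those of C2H2 zinc finger genes, with 11 of 421 (2.61%), led by Zfp740 at 6.15 and Zfp523 at 4.60, lipid droplet and PPAR targets, with 1 of 34, Plin4 at 4.07, and sterol and fatty acid synthesis, with 1 of 32, Hmgcs1 at 3.91.

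Translation factors had 7 of 42 (16.7%), with Eef1a1 at 5.45, Eef2 at 3.74, Eif3g at 3.47 and Eif4h at 3.14. Heat shock proteins and chaperones had 5 of 40, with Hspd1 and Hspe1 sharing a summit of 4.46 and Cct6a at 4.03, and proteasome subunits 6 of 49, with Psma3 at 10.6 in a tRNA gene and Psme3 at 3.16. Oxygen response and glycolysis had 5 of 51, with Ccng2 at 4.96, Kdm3a at 3.94, Bnip3l at 3.73 and Pkm at 2.60. With a window of 250 bp, 1 of these 51 was counted. Mitochondrial ribosomal proteins had 6 of 78, with Mrpl58 at 6.05 in a tRNA gene, Mrpl30 at 4.83, Mrpl3 at 4.70 and Mrps5 at 3.97, and oxidative phosphorylation 5 of 84, with Ndufs7 at 7.37 in a tRNA gene, Ndufb3 at 6.43, Ndufb1 at 4.98 and Atp5l at 3.72. Cytosolic ribosomal proteins had 4 of 81 (4.94%), and 2 of these, Rps29 among them, had a small RNA gene within 500 bp of the summit. Spliceosome genes had 2 of 52 (3.85%), Tra2b at 3.16 and Srsf6 at 2.50. Both shares were close to that of all genes. Aminoacyl-tRNA synthetases had 2 of 20, Wars at 5.33 and Yars at 3.604. Nuclear pore genes had 3 of 29, with Nup155 at 3.14, Rae1 at 3.04 and Nup214 at 2.83. Autophagy and lysosome genes had 3 of 38, with Atg101 at 4.73, Ulk2 at 3.52 and Sqstm1 at 2.64. DNA replication and repair had 3 of 50, with Atr at 3.48, Orc5 at 3.19 and Cdt1 at 2.13, and cell cycle genes 2 of 43, Rbl1 at 2.81 and Cdk4 at 2.79.

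No olfactory receptor gene of 1106 had a summit, which allows a share of up to 0.271%, no gene of 41 neuronal differentiation and neuron markers, which allows up to 7.32%, and no gene of 48 in the list of RNA polymerase II and general factors, which allows up to 6.25%. Neural progenitor markers had 1 of 28, Notch2 at 3.16. Extracellular matrix genes had 2 of 36, the collagen crosslinking enzymes Lox at 5.64 and Loxl1 at 4.77.

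**Figure D5:**
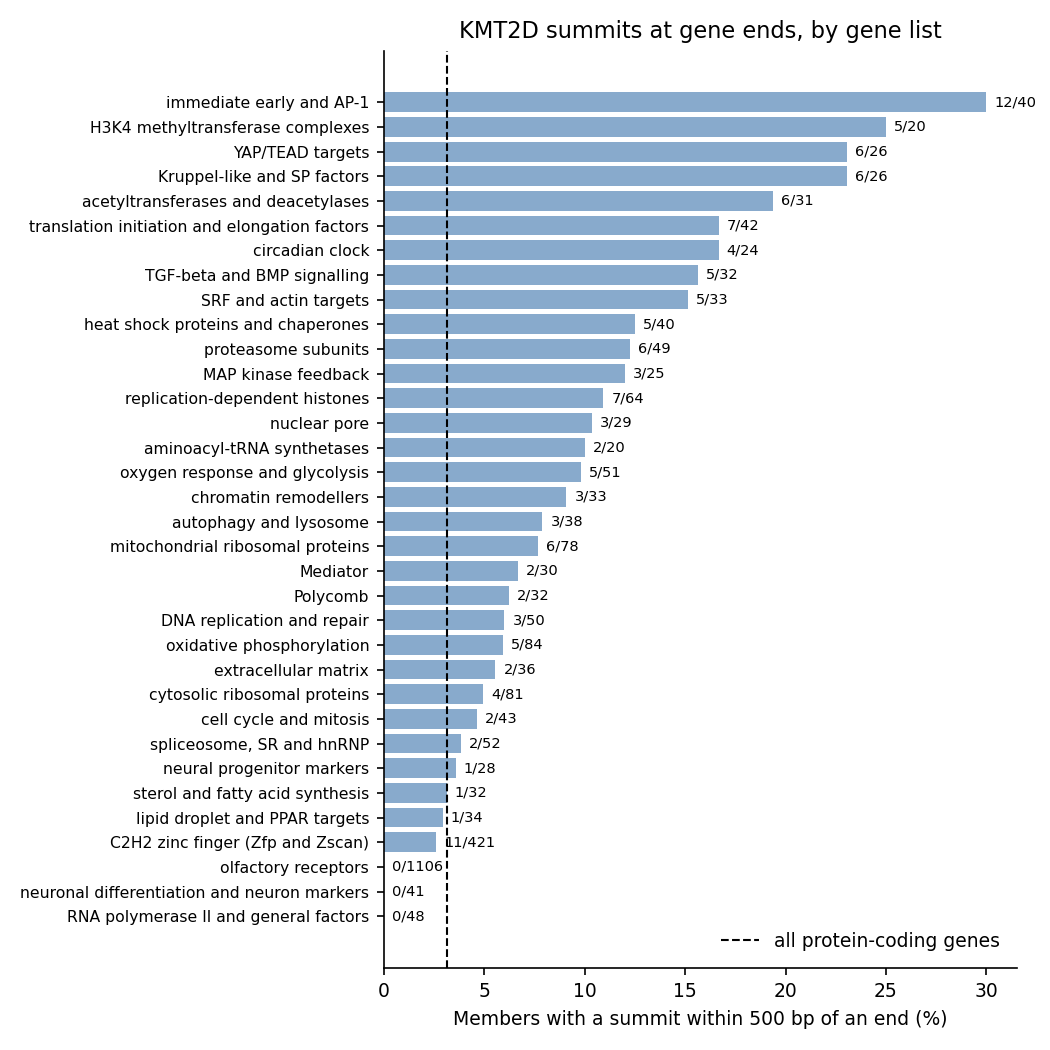
Share of each gene list with a summit within 500 bp of either gene end, in percent, with the count beside it and a dashed line at 3.16% for all protein-coding genes. Immediate early and AP-1 genes are highest at 30.0%, and olfactory receptors, neuronal markers and RNA polymerase II factors are at 0.

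The highest pileups of start peaks were at Kmt2a with 175 fragments, at Rbbp7 with 108 and 105 fragments in 2 peaks, at Zrsr2 with 106 and at Ap1s2 with 91. The last 4 lay on the X chromosome over high backgrounds, 59.7 and 48.0 fragments at Rbbp7, and had folds of 1.80, 2.16, 2.47 and 1.56. Backgrounds over 20 fragments were found at 8 of the 628 peaks (1.27%). All 8 lay on the X chromosome or on chromosome 15. Those on chromosome 15 were Trib1 with 22.5, Atad2 with 22.9 and Klf10 with 21.6 fragments. Klf10 is counted in the immediate early and Kruppel-like lists above. The widest start peaks were at Zyx, a focal adhesion protein, with 978 bp, Rhoq with 924, Rnf44 with 884, Cdt1 with 815 and Jak2 with 803 bp. Of the start peaks within 50 bp of the start, Ankrd40 had the highest fold, followed by Smad6 with 6.62 (4.85 to 8.84) at 6 bp before the start and Oga, the enzyme that removes O-GlcNAc, with 6.07 at 39 bp before.

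The 500 bp limit did not fall at a gap in the distances, and peaks lay close to it on both sides. Just inside it were Vamp8 at 497 bp with a fold of 3.09, H6pd at 491 bp with 3.53 and B4gat1 at 487 bp with 4.65. Just outside were Btbd19 and Trim65 at 502 bp with 5.47 and 2.10, and Hoxd9 at 503 bp with 2.94. A further 149 peaks lay beyond this limit but within 1000 bp of an end.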

How the data were processed

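Per the labels, chromatin of wild-type HT22 cells was precipitated with an anti-KMT2D antibody and set against input. Bowtie2, Picard, MACS2 and mm10 come from the submitters' processing notes, and the sources used here do not give versions or settings. The deposited list gives each peak's interval and summit, the fold or ratio over background and the −log10 of its p-value and q-value. The deposited score was not used. The lowest −log10 q was 1.32. The ChIP pileup and background of each peak were solved from the authors' fold and p-value under the MACS2 formulas, to within 0.001 of the −log10 p.

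Gene ends came from a RefSeq table of GRCm38.p6, with 49595 of 49997 genes on the main sequence of a chromosome kept. It gives no strand, so strand was taken from RefSeq promoter entries for 17492 of 21774 protein-coding genes (80.3%). The nearest end decided the class. Shares have Wilson intervals, and with 1 library of each kind no test was run. Where a count was 0, the share it allows is that of 3 counts. Procedures were tested on simulated data. Tools were Python 3.11.15, pandas 2.3.3, numpy 2.4.6, scipy 1.17.1 and matplotlib 3.10.9.

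The members, the 34 gene lists (2819 entries, 2 unmatched) and the tests were chosen with earlier results of these data known. Named genes were the 20 start and 10 finish peaks of highest fold, up to 4 members of highest fold per list, the 5 highest head-to-head peaks, the 3 peaks on each side of 500 bp, the 5 start peaks of largest pileup and of largest width, and the 3 highest within 50 bp of a start. A few genes under this rule are not reported here. Alternatives were windows of 250 and 1000 bp, stricter peaks, whole intervals, curated mRNA genes and peaks left out.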

Additional observations from a re-analysis of the deposited data

Results flagged for a closer look

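The list also held 32 peaks on unplaced or random sequences, which none of the comparisons used. Their folds ran from 1.13 to 2.95, with a median of 1.59.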

How the results depend on the processing

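No paired analysis was possible because each kind of library had 1 sample. With a window of 250 bp, 11.8% of peaks were members, 94.97% of the split ones were at starts, and 2.14% and 0.137% of genes had a summit at the start and the finish. With 1000 bp these were 20.97%, 89.5%, 3.53% and 0.543%. Of peaks with a −log10 q at the list's median or more, 185 members were left, 9.97% of peaks, with 86.2% at starts, 0.829% and 0.126% of genes, median folds of 4.96 at starts, 5.74 at finishes and 5.81 elsewhere, a median position of -49 bp, a small RNA gene nearer in 13.5%, CpG ratios of 0.838 with and 0.563 without a summit, and a GC content of 63.0%. Of peaks in the upper 25% by fold, and in the same order, there were 62 members, 6.69%, 80.8%, 0.252% and 0.0629%, folds of 7.23, 6.26 and 7.05, -68 bp, 33.9%, CpG ratios of 0.812 and 0.566, and 61.7%. Fewer peaks enter under both, which lowers the counts by construction. The cause of the reversed position was not tested. Whole intervals gave 18.7% members and 0.394% of genes at the finish, and curated mRNA genes a CpG ratio of 0.572 without a summit. Leaving out peaks near small RNA genes, or those with a background over 20 fragments, moved none of the 13 main results that each was run on. Starts taken from the promoter table, an alternative chosen after seeing the data, moved neither of the 2 results it was run on, the number and the share of peaks. The set of peaks was not the same, since only 472 of the 628 had an annotated promoter start of any gene within 500 bp. The member count of a list moved by over 1.5 times in 9 of 34 lists at 250 bp, 7 at 1000 bp, 29 at the median −log10 q, 31 in the upper 25% by fold, 2 without peaks near small RNA genes and 1 without high backgrounds. Motif shares from 150 bases before the start moved in 22 of 30 cases, the window being shorter. They moved in 7 of 30 at the median −log10 q and 11 of 30 in the upper 25% by fold, where the order with and without a summit turned for 3 and 7 of 15 motifs. It turned for 1 of 15 without peaks near small RNA genes. Depth limits single folds, since the median pileup was 30 fragments.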

Other observations

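Members were spread unevenly over the chromosomes. Per 100 protein-coding genes there were 4.68 on chromosome 3, 4.54 on 19 and 4.52 on 15, and 1.14 on X and 1.19 on 7, against 2.88 over all chromosomes. As a share of the peaks on the chromosome, members were 20.5% on 3, 23.4% on 19, 13.6% on 15, 20.4% on X and 12.1% on 7, against 16.9% over all of them. The Y chromosome had 9 peaks, none at a gene end. There were 10 genes with more than 1 peak at their ends. Hes7 had 3, at folds of 7.61, 7.45 and 3.07. Ubb, a ubiquitin gene, had peaks of 5.29 and 2.74 on either side of its start, Tmpo 11.04 and 2.70, and Baz1b, a chromatin remodeller subunit, 3.14 and 2.62.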
